A study of Arabidopsis thaliana with 12 samples.

Results

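The 6 light-signalling genes described here are PIF4 (AT2G43010), PIF5 (AT3G59060), HFR1 (AT1G02340), HY5 (AT5G11260), ELIP1 (AT3G22840) and PHOT2 (AT5G58140). They were taken by locus from the authors' 4 lists of changed genes and changed gene segments, which together name 4018 genes of Arabidopsis thaliana seedlings, and all 6 were found. The lists compare wild type (WT) with the mutants picln-1 and prmt5-5, with 4 libraries of polyadenylated RNA from each genotype. pICln is a chaperone of spliceosome assembly, and PRMT5 is an arginine methyltransferase that modifies Sm proteins of the spliceosome. Seedlings of all 3 genotypes grew for 10 days at 22 °C, and the labels give 9 days of the regime of 12 h light and 12 h darkness. The labels of all 12 libraries name no further treatment, although the series' design line mentions cold, and the hour of harvest was not given in the sources used here. pICln and PRMT5 are each studied through 1 mutant line, and both lines were compared with the same WT libraries.

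Light reaches plant gene expression through photoreceptors. Phytochromes sense red light, cryptochromes and phototropins sense blue light, and phototropins such as PHOT2 are kinases that steer growth, stomatal opening and the movement of chloroplasts. PIF4 and PIF5 are basic helix-loop-helix (bHLH) transcription factors that promote elongation and are held back by phytochrome. HFR1 is an atypical bHLH protein that pairs with PIFs and keeps them from DNA, and HY5 is a bZIP transcription factor that promotes the light-grown state. ELIP1 encodes a chlorophyll-binding protein of the thylakoid that is induced by strong light and is a known HY5 target.

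Changes of expression, retained percentages and adjusted p come from the authors' deposited tables; errors, folds, ranks, numbers of features tested and sequence features were computed from them or from the reference genome. A change of expression is a log2 fold change, mutant over WT. A gene is listed if its adjusted p was below 0.05, and no listed gene has a log2 change smaller in size than 0.58. A gene that is not listed missed either limit or was not tested. The tables analysed here hold no values per library, so errors are approximate standard errors (SE), obtained by dividing each change by the normal quantile of the authors' p. Segments of a gene between splice sites are called bins, and for each bin the authors gave the percentage of junction reads that retain the intron, pooled over the 4 libraries of a genotype. A bin is listed if its adjusted p was below 0.15 and the percentage changed by more than 5 points. These percentages carry no error, and the number of reads behind them is unknown. In the authors' deposited tables the pICln transcript was lower in picln-1 (log2 change -3.48), and an intron of PRMT5 reached 81.0% retention in prmt5-5, from 0% in WT, while PRMT5 expression was not listed.

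PHOT2 was the gene of the 6 with listed changes of splicing, and a different intron was listed in each mutant. In prmt5-5, intron 20 of 23 was retained in 66.7% of junction reads, against 3.45% in WT and 4.15% in picln-1, by the authors' deposited table. In picln-1, intron 12 was retained in 9.62% of junction reads, against 3.04% in WT and 2.69% in prmt5-5, by the authors' deposited table. Intron 20 thus stood apart in prmt5-5 and intron 12 in picln-1, with the remaining mutant within 1 percentage point of WT in both cases. Whether the mutants differ from each other at either intron was not tested.

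Both introns lie in the coding sequence on the + strand of chromosome 5 (TAIR10). Intron 20 spans chr5:23529219-23529316 and intron 12 spans chr5:23527652-23527726, numbered in the first annotated RefSeq transcript. Their sequences are shown because these are the introns of PHOT2 that were listed. Each run starts and ends with 10 bases of exon, and the capitals mark the first 6 and the last 3 bases of the intron.
PHOT2 intron 20: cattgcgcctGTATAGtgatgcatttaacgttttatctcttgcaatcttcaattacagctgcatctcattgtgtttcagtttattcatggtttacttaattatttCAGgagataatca
PHOT2 intron 12: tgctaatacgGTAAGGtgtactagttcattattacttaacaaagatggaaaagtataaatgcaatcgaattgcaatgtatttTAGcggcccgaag

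The change at intron 20 had an adjusted p of 6.11e-121 (log2 usage change 3.21 ± 0.13, approximate SE) by the authors' deposited table. By p it ranked 4 among the 3406 bins listed in prmt5-5, and by gain in percentage points (63.2) it ranked 26. The change at intron 12 was smaller, with an adjusted p of 0.00253 (log2 usage change 1.12 ± 0.25, approximate SE) by the authors' deposited table, and it ranked 217 by p among the 541 bins listed in picln-1. For comparison, the authors listed 2.82% of the 118209 bins tested in prmt5-5 and 0.428% of the 112984 tested in picln-1 as higher in usage. Of the 26 distinct annotated introns of PHOT2, 1 was listed in each mutant.

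The reading frame of the 915-residue protein was followed through each retained intron. With intron 20 retained, 773 whole codons precede the intron, 1 residue would be read from the intron and a stop follows. The stop codon is the second codon of the intron, inside the 5′ splice site, and the last 142 annotated residues, in the C-terminal part that holds the kinase domain, would be missing. With intron 12 retained, whose 75 bases keep the frame, 534 codons precede the intron, 15 residues would be read from it before a stop inside it, and the last 381 annotated residues would be missing. These are properties of the reference sequence, and no protein was measured. Intron 20 also lies within an exon of 1 of 7 annotated transcripts, a shorter form that encodes 689 residues, so its retention is an annotated event, which intron 12 retention is not. The authors accordingly named the bin of intron 20 as an exon bin, with intron retention as its event.

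The splice sites of the 2 introns differ. Each 5′ splice site was scored in bits over 9 bases, 3 of exon and 6 of intron, against 133510 annotated introns. A higher score means closer to the common pattern. Intron 20 scored 1.93 bits, the weakest of the 23 PHOT2 introns and weaker than all but 3.06% of annotated introns, whose median was 7.01 bits. Intron 12 scored 7.23 bits, close to that median. At the 3′ splice site (23 bases) the order was the opposite: intron 12 scored 3.48 bits, the second weakest of the 23 (percentile 6.58), and intron 20 scored 12.01 bits (percentile 82.4). Intron 22, whose 5′ splice site scored 2.21 bits, was not listed in either mutant. Neither was intron 3, whose 3′ splice site was the weakest of the 23 at -0.21 bits. The introns of FHY3 and HAT2 listed in picln-1, described below, scored from 7.68 to 13.4 bits at the 3′ splice site. A part of these scores in the changes of retention was not tested.

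**Figure D1:**
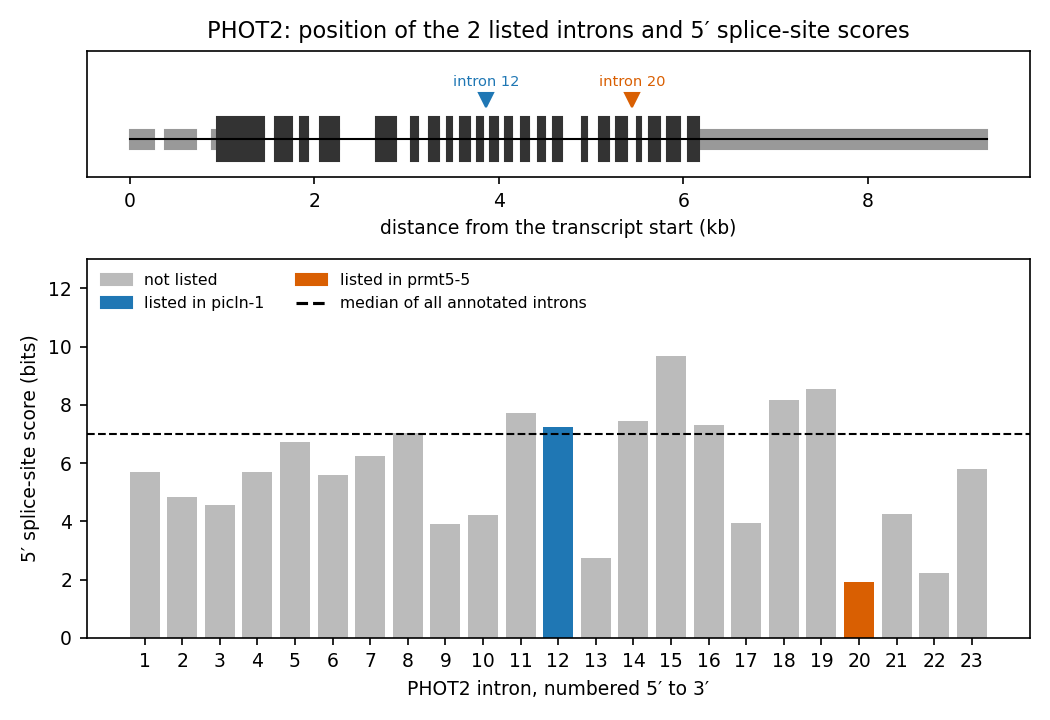
Upper panel: exons of PHOT2 (dark: coding, light: untranslated) along the distance from the transcript start in kb, with the 2 listed introns marked. Lower panel: 5′ splice-site score in bits of each of the 23 introns; intron 20, listed in prmt5-5, has the lowest bar (1.93 bits), and intron 12, listed in picln-1, stands at 7.23 bits beside the dashed median of 7.01 bits.

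The most frequent base at each of the 9 positions is given first, followed by both PHOT2 sites, with the bases of the intron in capitals. Positions are counted from 1 at the first of the 3 exon bases.
Most frequent bases: aagGTAAGT
PHOT2 intron 20: cctGTATAG
PHOT2 intron 12: acgGTAAGG

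Against the most frequent bases, intron 20 carries 6 differences (A1C, A2C, G3T, A7T, G8A and T9G) and intron 12 carries 2 (A2C and T9G). Position 8, the fifth base of the intron, is G in 49.6% of annotated introns and A in 20.6%. Position 3, the last base of the exon, is G in 76.3% and T in 10.4%.

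PHOT2 expression rose as well. In prmt5-5 its transcript was 2.06-fold higher than in WT (log2 change 1.04 ± 0.08, approximate 95% interval 0.88 to 1.20, adjusted p = 8.33e-34 by the authors' deposited table). It was not listed for expression in picln-1. How reads inside introns were counted was not given in the sources used here, so retained and spliced transcripts cannot be told apart in this value. In 3 of 7 annotated transcripts the last exon also spans the gene AT5G58150 on the opposite strand (chr5:23530081-23532840, 2760 bases). Whether the counting used strand was not given in the sources used here, so reads of the 2 genes there cannot be told apart. AT5G58150 itself was not listed in either mutant.

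The growth-promoting factors PIF4 and PIF5 rose in prmt5-5. PIF4 (chr2:17886101-17889087) was 2.56-fold higher than in WT (log2 change 1.35 ± 0.10, approximate 95% interval 1.15 to 1.56, adjusted p = 5.32e-36 by the authors' deposited table). PIF5 (chr3:21827905-21830837) was 1.64-fold higher (log2 change 0.71 ± 0.08, approximate 95% interval 0.55 to 0.87, adjusted p = 1.81e-17 by the authors' deposited table). The rise of PIF4 ranked 99 by size and that of PIF5 ranked 538 among 836 listed rises, whose median was 1.75-fold. The approximate intervals of the 2 paralogs do not overlap, and the difference between them was not tested. Neither gene was listed in picln-1.

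HFR1, which binds PIFs and blocks their action, fell in both mutants. It was 2.16-fold lower in picln-1 (log2 change -1.11 ± 0.19, approximate 95% interval -1.49 to -0.73, adjusted p = 7.40e-07 by the authors' deposited table; chr1:465616-467880). In prmt5-5 it was 2.25-fold lower (log2 change -1.17 ± 0.19, approximate 95% interval -1.55 to -0.79, adjusted p = 1.93e-08 by the authors' deposited table). Of the 6 genes HFR1 was the single one listed for expression in picln-1. Its fall ranked 35 of 164 listed falls in picln-1 and 103 of 695 in prmt5-5. Both values use the same WT libraries, so they are not independent of each other. Of the 279 genes listed in picln-1, 122 were also listed in prmt5-5, so a listing in both is common. Among the 122 genes listed in both mutants, the 3 nearest to HFR1 over the pair of log2 changes were AT2G41480 (-0.95 in picln-1 and -1.15 in prmt5-5), AT3G28220 (-0.92 and -1.25) and AT4G03230 (-1.03 and -0.97), all from the authors' deposited tables.

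HY5 and its target ELIP1 fell in prmt5-5. HY5 (chr5:3593335-3595073) was at a 1.61-fold lower level (log2 change -0.69 ± 0.10, approximate 95% interval -0.88 to -0.50, adjusted p = 2.16e-11 by the authors' deposited table). ELIP1 (chr3:8084405-8085669) was 1.53-fold lower (log2 change -0.61 ± 0.17, approximate 95% interval -0.95 to -0.28, adjusted p = 0.00150 by the authors' deposited table). These falls were smaller than most: the median listed fall in prmt5-5 was 1.71-fold, and HY5 ranked 462 and ELIP1 615 of 695. The fall of ELIP1 lies close to the size limit of the list. ELIP2, a close relative of ELIP1, was not listed, and reads could be split between the pair. Neither HY5 nor ELIP1 was listed in picln-1.

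**Figure D2:**
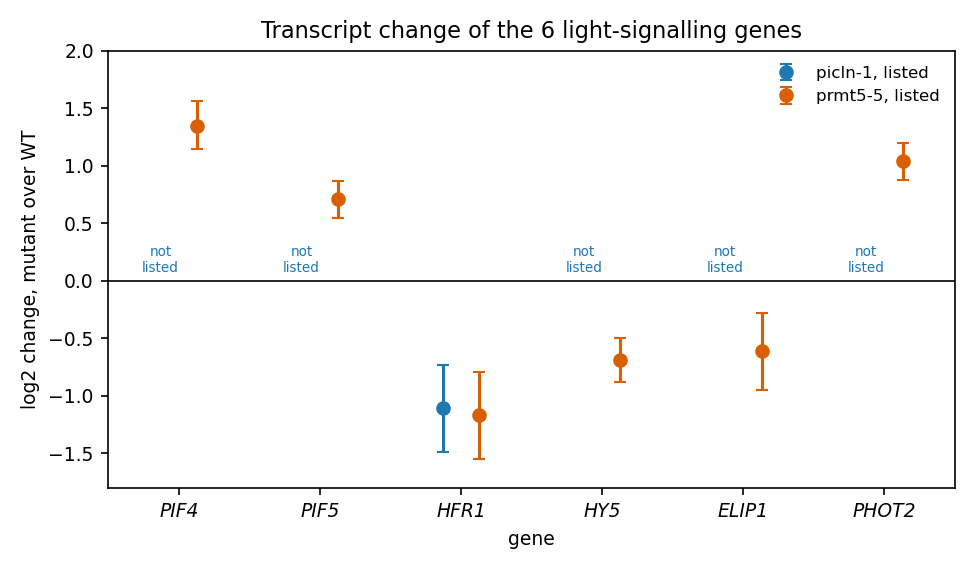
Log2 change of expression (vertical axis, mutant over WT) of the 6 genes in picln-1 and prmt5-5, with approximate 95% intervals derived from the authors' p. PIF4, PIF5 and PHOT2 lie above 0 and HFR1, HY5 and ELIP1 below 0 in prmt5-5, and HFR1 is the gene with a listed value in picln-1 (-1.11).

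Across the 6 genes, 3 were listed as higher and 3 as lower in prmt5-5, where 4.99% of the 16747 genes tested were listed as higher and 4.15% as lower. In picln-1, 0 were listed as higher and 1 as lower, where 0.698% of the 16473 genes tested were higher and 0.996% lower. The 6 genes were proposed with the lists in view, so these counts describe the genes and are not read against the background. In splicing, PHOT2 was the gene with a listed bin. The other 5 genes hold 25 distinct annotated introns, and no bin of them was listed in either mutant. Over all genes, those with a bin listed as higher came to 15.3% of genes tested for expression in prmt5-5 and 2.57% in picln-1. Of all bins tested, 2.82% in prmt5-5 and 0.428% in picln-1 were listed as higher. The lack of a listed bin thus does not set the other 5 genes apart.

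Sequence upstream of the genes was searched for 2 motifs within 250 bases before the annotated start. They were the G-box, CACGTG, which reads the same on both strands and is bound by HY5 and PIFs, and the PIF-binding E-box, CACATG, which reads CATGTG on the opposite strand. A G-box was present before PIF5 and ELIP1, with its first base at -165 and -66 from the start, and the E-box before HY5 at -138. No match was found in this window before PIF4, HFR1 and PHOT2. Of 27443 protein-coding genes with such a window, 6.49% held a G-box and 11.1% the E-box. The ELIP1 window is shown because ELIP1 fell together with HY5 (chr3:8085670-8085919, - strand, RefSeq TAIR10.1), with the G-box in capitals. A match is a description of the letters and does not show binding.
ELIP1 upstream: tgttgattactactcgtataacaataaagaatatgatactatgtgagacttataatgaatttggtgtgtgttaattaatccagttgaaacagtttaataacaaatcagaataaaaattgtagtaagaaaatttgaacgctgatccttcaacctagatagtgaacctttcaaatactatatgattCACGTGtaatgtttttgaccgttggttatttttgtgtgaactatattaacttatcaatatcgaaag

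The wider pathway was read from 9 lists of 68 light-signalling genes, the 6 genes included. In prmt5-5, 7 of the 68 were listed as higher and 8 as lower. Of the 62 that are not among the 6 genes, 4 (6.45%) were higher and 5 (8.06%) lower, beside 4.99% and 4.15% of all genes tested. In picln-1, 0 of the 62 were higher and 1 (1.61%) was lower, beside 0.698% and 0.996% of all genes tested. The 62 may include genes that were not tested, while the shares of all genes count tested genes alone. These shares rest on a few genes each and are given as a description.

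The PIF family, which includes PIF4 and PIF5, had 3 of 7 members listed as higher and 1 as lower in prmt5-5 by the authors' deposited table. Of all genes tested there, 4.99% were listed as higher and 4.15% as lower. PIF4 and PIF5 were proposed with the lists in view, and outside them 1 member was higher and 1 lower. PIF7, a shade-response factor, rose by 1.5 on the log2 scale, beside PIF4 and PIF5, and UNE10, also known as PIF8, fell by 1.08. PIF1, PIF3 and PIF6 were not listed for expression. Among 4 PIF antagonists, PAR1, an atypical helix-loop-helix protein, rose by 0.61 in prmt5-5 by the authors' deposited table, while HFR1 fell, and PAR2 and PIL1 were not listed. Of 10 known PIF targets, the growth regulator gene PRE1 was listed in both mutants, and it fell (log2 change -0.60 in picln-1, adjusted p = 0.0231, and -0.77 in prmt5-5, adjusted p = 0.000446, by the authors' deposited tables). The other 9, among them the auxin genes YUC8, IAA19 and IAA29 and the shade marker ATHB2, were not listed for expression in either mutant.

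On the HY5 side, HYH, the closest relative of HY5, fell in prmt5-5 (log2 change -1.11 ± 0.15, approximate SE, adjusted p = 1.73e-12 by the authors' deposited table). This estimate is larger in size than that of HY5, and the difference between HYH and HY5 was not tested. The 6 BBX partners of HY5 on the list, BBX20 to BBX25, were not listed for expression. Of 5 HY5 targets, the flavonoid gene CHS (log2 change -1.48 by the authors' deposited table) and ELIP1 fell, and ELIP2, RUP1 and RUP2 were not listed.

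Among 10 photoreceptor genes, PHYD, a phytochrome, rose by 0.72 in prmt5-5 by the authors' deposited table, beside PHOT2. PHOT1, both cryptochromes, UVR8 and the other phytochromes were not listed for expression. In the phototropin pathway, PKS2, which acts in phototropism, fell by 0.60 in prmt5-5 by the authors' deposited table, 1 of 11 genes. Of 8 repressors of light responses, COP10 rose by 0.75 by the authors' deposited table, and COP1, DET1 and the 4 SPA genes were not listed for expression. None of the 5 genes of phytochrome A signalling was listed for expression.

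**Figure D3:**
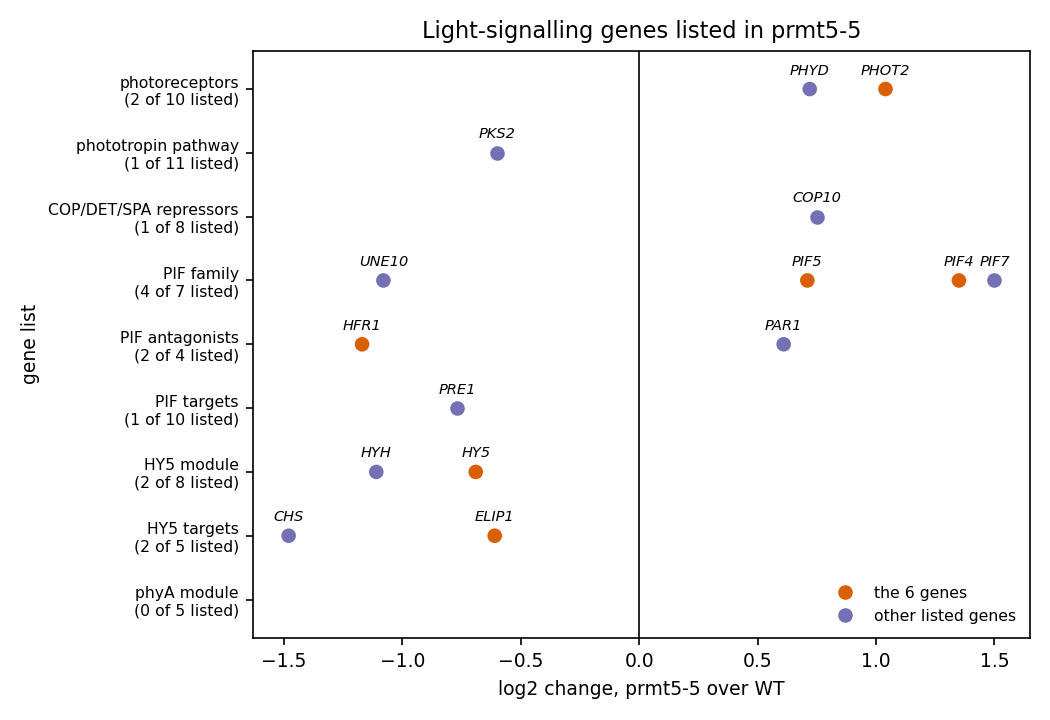
Log2 change of expression in prmt5-5 over WT (horizontal axis) for each listed gene of the 9 light-signalling lists (rows, with the number listed of the number in the list). The PIF family and the photoreceptors hold most of the rises and the HY5 module and targets hold falls, from CHS at -1.48 to ELIP1 at -0.61. PIF4, PIF5, PHOT2, HY5 and ELIP1 are among the 6 genes, which were proposed with the lists in view, so the pattern partly reflects that choice. Outside the 6 genes the rises were PIF7, PHYD, PAR1 and COP10, and the falls were UNE10, PRE1, PKS2, HYH and CHS. UNE10, at -1.08, belongs to the PIF family.

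Retention of introns was listed in 9 of the 68 genes (13.2%) in prmt5-5 and in 3 (4.41%) in picln-1. All listed bins of these genes gained retention. Among all listed bins, 3335 of 3406 in prmt5-5 and 484 of 541 in picln-1 were higher in usage. Over all genes, those with a bin listed as higher came to 15.3% of the number tested for expression in prmt5-5 and 2.57% in picln-1. The share of light-signalling genes in prmt5-5 was thus near that of all genes, although the 68 may include genes that were not tested. In prmt5-5 the largest share after PHOT2 was in KAC1, a kinesin-like protein of chloroplast movement, whose intron 7 went from 9.09% in WT to 30.2%, by the authors' deposited table. PHYD intron 1 went from 0% to 26.7%, COP10 intron 1 from 2.75% to 20.9% and SPA3 intron 1 from 7.69% to 20.3% by the authors' deposited table. The adjusted p of SPA3 intron 1 was 0.142 by the authors' deposited table, so it was listed under their limit for bins and would not be at 0.05. PHYD and COP10 thus gained retention and rose in expression in prmt5-5, as PHOT2 did. The other genes with a listed bin there (KAC1, SPA3, PIF1, COP1, BBX22 and FHY3) were not listed for expression. How often a gene with a listed bin also rose, over all genes, was not computed. The overlap therefore does not set light-signalling genes apart. As for PHOT2, retained and spliced transcripts cannot be told apart in the expression values. PIF1 intron 6 went from 2.36% to 18.8%, COP1 intron 11 from 2.29% to 14.9% and BBX22 intron 1 from 1.05% to 8.65% by the authors' deposited table. In picln-1, HAT2 intron 2 went from 5.21% to 14.4% and FHY3 intron 3 from 3.35% to 11.9% by the authors' deposited table. HAT2 intron 2, with an adjusted p of 0.0571 by the authors' deposited table, would also not be listed at 0.05. FHY3 intron 2 was listed in both mutants, and by the authors' deposited tables it rose from 1.34% in WT to 6.98% in picln-1 and to 8.21% in prmt5-5. COP1 intron 11 and PIF1 intron 6, listed in prmt5-5 alone, stood at 8.53% and 11.5% in picln-1 by the authors' deposited table, and absence from the list of picln-1 does not show that they were unchanged there.

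**Figure D4:**
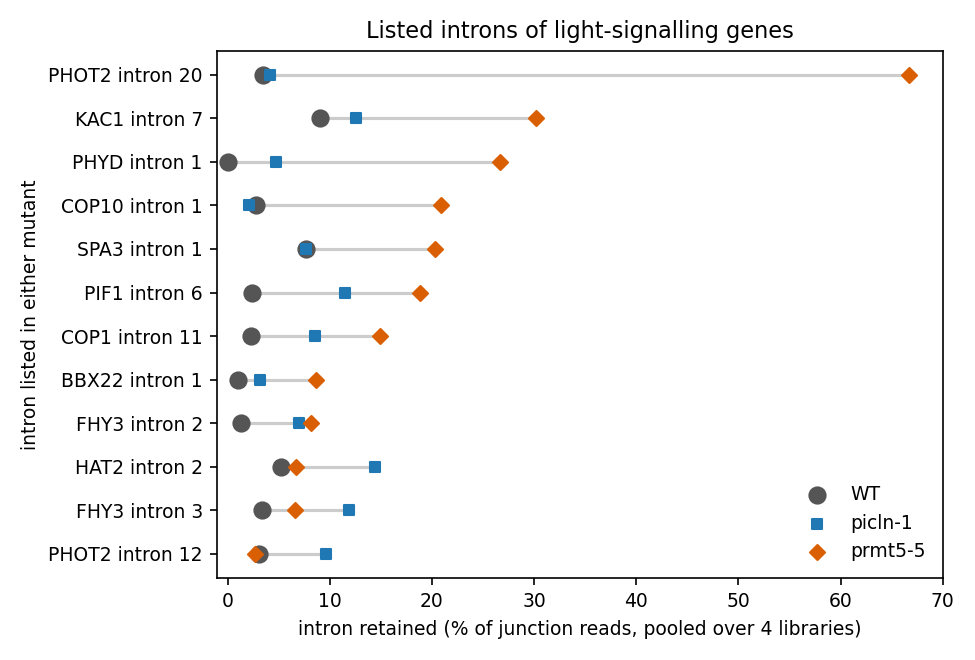
Percentage of junction reads that retain each listed intron (rows) in WT, picln-1 and prmt5-5, each point pooled over 4 libraries. PHOT2 intron 20 reaches 66.7% in prmt5-5 while WT (3.45%) and picln-1 (4.15%) lie together, and no other intron passes 30.2%.

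The 5′ splice sites of the other 8 introns listed in prmt5-5 are shown for comparison with PHOT2 intron 20, in order of score from weakest, with the intron in capitals.
COP1 intron 11: ccaGTTAGA
COP10 intron 1: cggGTTTAA
BBX22 intron 1: cagGTCTCA
KAC1 intron 7: tctGTATGT
FHY3 intron 2: aaaGTAACT
PIF1 intron 6: cagGTTCAT
PHYD intron 1: aagGTTTAT
SPA3 intron 1: gagGTTTGT

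With PHOT2 intron 20, the 9 sites scored from 1.93 to 8.01 bits with a median of 4.14, and 7 of the 9 lay under the median of all annotated introns. The same share was not computed for all introns listed in prmt5-5. The count therefore describes these 9 sites and does not set light-signalling genes apart. PHOT2 intron 20 was the weakest of them and also the most retained in prmt5-5. COP10 intron 1, at 3.54 bits, carries 6 differences from the most frequent bases, as PHOT2 intron 20 does, and had 20.9% retention in prmt5-5 by the authors' deposited table. Score and retention did not order the sites alike. PHYD intron 1, at 7.75 bits, had 26.7% retention in prmt5-5, and SPA3 intron 1, at 8.01 bits, had 20.3%. COP1 intron 11, at 3.22 bits, had 14.9%, and BBX22 intron 1, at 3.55 bits, had 8.65%. A relation between score and retention was not tested.

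Bins of other genes had percentages close to those of the PHOT2 introns. Among the 3406 bins listed in prmt5-5, the 3 nearest to PHOT2 intron 20 over the 3 genotypes' percentages (WT, picln-1, then prmt5-5) were bins of HINT4 (4.50%, 4.29% and 68.0%), TAFII15 (2.34%, 1.81% and 68.1%) and AT3G53970 (3.31%, 6.74% and 68.5%) by the authors' deposited table. Among the 541 bins listed in picln-1, the 3 nearest to PHOT2 intron 12 were bins of EMB3114 (3.48%, 8.77% and 3.90%), AT5G17530 (1.94%, 8.69% and 3.48%) and AT5G35200 (2.29%, 9.52% and 4.24%) by the authors' deposited table.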

How the data were processed

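RNA of 12 libraries, 4 per genotype, was sequenced. The submitters' processing notes name TopHat and TAIR10; the counting and testing program was not given in the sources used here. The authors deposited log2 fold changes of genes and bins, p-values with adjusted p-values, and, per the file headers, a retained or included fraction per genotype, multiplied here by 100. Base 2 was taken because the smallest listed gene change, 0.58, then equals about a 1.5-fold change. Bins were deposited with an adjusted p below 0.15 and a change above 5 percentage points, per the description deposited with the tables. The files hold no counts, so the planned count test was not run, the authors' calls were used as deposited, and depth is unknown. Whether the 4 libraries per genotype are separate cultures is not stated; the spread behind the p-values may be technical. The number of features tested was recovered from adjusted p over p, which equals that number over the rank; this was tested on simulated data (4 of 4 tables recovered). Gene names, introns and sequences come from RefSeq TAIR10.1, in which 99.4% (picln-1) and 99.7% (prmt5-5) of the listed intron bins equal an annotated intron. Splice sites were scored with base frequencies of all annotated introns. Of the 68 list symbols, 67 are in RefSeq for their locus. The 6 genes and the lists were chosen with earlier results of these data known. All 6 genes are named, of the lists every listed gene, and, for likeness, the 3 nearest by Euclidean distance. Python 3.11.15, numpy 2.4.6, pandas 2.3.3, scipy 1.17.1 and matplotlib 3.10.9 were used.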

Additional observations from a re-analysis of the deposited data

How the results depend on the processing

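Of 108 alternative counts and scores, 89 stayed within 1.5 times the value reported (0.5 bits for scores) and 19 moved. Many of the 89 are counts of 0, which a stricter limit cannot change, so the share that stayed does not measure robustness. A required log2 change of at least 1 left 1 of the 6 genes, HFR1, as lower in prmt5-5, and 2, PIF4 and PHOT2, as higher, without PIF5. That limit left 3 light-signalling genes as higher and 4 as lower there. In picln-1, that limit and an adjusted p of at most 0.01 each left 1 light-signalling gene as lower, HFR1, since PRE1 passed neither. A change of the retained fraction above 0.1, or above 0.2, left 0 of the 6 genes with a listed bin in picln-1, so the call of PHOT2 intron 12 rests on the deposited limit of 0.05. An adjusted p of at most 0.05 for bins left 8 of 9 light-signalling genes with a listed bin in prmt5-5, without SPA3, and 2 of 3 in picln-1, without HAT2. PHOT2 intron 20 passed every limit tried. Recovering the number of features tested from the median over all listed positions gave 9423 genes and 51284 bins in picln-1 and 77557 bins in prmt5-5; the tables hold the listed features alone, so positions in them understate ranks and these numbers are too low. Leaving out a replicate could not be run, because the tables hold no values per library. No paired analysis was possible because of the same lack. The unknown number of junction reads limits the percentages, above all those of a few percent.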
